A study of Mus musculus with 10 samples.

Results

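In smooth muscle cells sorted from embryonic mouse aorta, 9 genes of the elastic fibre surface were followed. They were the fibulins Fbln1, Fbln2, Fbln5, Efemp1 and Efemp2, the emilins Emilin1, Emilin2 and Emilin3, and Mfge8. They were taken by symbol from a table of 28165 genes in 10 libraries, and all 9 were present. The rule used their names and no measured value. The Eln-/- group held 5 libraries of sorted aortic smooth muscle cells from embryos without functional Eln at embryonic day 15.5, and the Eln+/+ group held 5 from embryos with both Eln alleles intact. All embryos carried the Acta2-GFP reporter, came from matings of Eln(+/-) parents and received no treatment. Cells from collagenase-digested aorta were sorted as GFP+, CD31- and DAPI-, which keeps live cells with an active Acta2 promoter and leaves out endothelial cells. The labels name neither the Eln allele nor how many embryos were used for each library. The p-values therefore rest on variation among libraries, some of which can be technical.

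Elastic fibres have a core of cross-linked elastin, the product of Eln, laid on a scaffold of fibrillin microfibrils. Fibulins are secreted glycoproteins with calcium-binding EGF-like repeats. In mice the short fibulins encoded by Fbln5 and Efemp2 are needed to gather elastin on microfibrils and to bring lysyl oxidases to it, and the long fibulins encoded by Fbln1 and Fbln2 bind elastin, versican and basement membrane proteins. Emilins are multimeric glycoproteins found where elastin meets microfibrils, and Emilin1 also restrains the maturation of TGF-beta in mice. Mfge8 encodes lactadherin, a secreted protein that binds elastin, phosphatidylserine and integrins of the alpha-v class.

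The promoters of the 3 genes that ranked among the first 4 by level per length in each genotype are shown to place these abundant transcripts in the genome. Each run is the 250 bases before the RefSeq start nearest to the annotated gene start (GRCm38.p6, gene strand, 5' to 3'), with GGGCGG and its reverse complement in capitals.
Fbln5: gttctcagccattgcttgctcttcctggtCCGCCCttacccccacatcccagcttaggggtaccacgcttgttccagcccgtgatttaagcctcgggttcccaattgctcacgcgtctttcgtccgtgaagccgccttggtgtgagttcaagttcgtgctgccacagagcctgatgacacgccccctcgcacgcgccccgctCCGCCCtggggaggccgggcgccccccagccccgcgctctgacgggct
Efemp2: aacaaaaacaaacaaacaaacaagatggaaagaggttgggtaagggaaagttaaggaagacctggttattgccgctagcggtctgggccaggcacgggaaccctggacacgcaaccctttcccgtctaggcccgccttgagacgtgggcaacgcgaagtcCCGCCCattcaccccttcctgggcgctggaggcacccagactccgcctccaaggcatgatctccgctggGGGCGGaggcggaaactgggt
Mfge8: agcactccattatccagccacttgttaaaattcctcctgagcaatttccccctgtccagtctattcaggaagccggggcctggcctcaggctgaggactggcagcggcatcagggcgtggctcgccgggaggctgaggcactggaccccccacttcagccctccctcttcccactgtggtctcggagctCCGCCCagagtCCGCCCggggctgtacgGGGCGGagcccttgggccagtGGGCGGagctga
The windows are chr12:101819120-101819369 on the minus strand for Fbln5, chr19:5473696-5473945 on the plus strand for Efemp2 and chr7:79149061-79149310 on the minus strand for Mfge8. The motif GGGCGG, known as the GC box, occurred on either strand in 5 of the 8 member promoters in the RefSeq table, against 32.7% of all 32851 promoters of that length. It occurred 2 times in the Fbln5 window, 2 times in the Efemp2 window and 4 times in the Mfge8 window. The motif TATAAA was found in 0 of the 8 member windows and in 12.4% of all. The CArG box, the element read by serum response factor in smooth muscle, was found in 0 of the 8 and in 1.47% of all. Emilin3 had no entry.

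Total estimated counts were 28367714 to 56371424 in Eln-/- libraries and 26951681 to 63866346 in Eln+/+ libraries. At least 1 count was seen for 15089 to 15925 genes in Eln-/- replicates 4 and 5 and Eln+/+ replicate 1, while the remaining 7 held 18157 to 22951. Those 3 are called the gene-poor libraries here. Eln itself had 36, 1, 0, 1 and 0 counts in Eln-/- replicates 1 to 5, against 2409 to 105866 in Eln+/+ libraries. Smooth muscle transcripts were present in every library. Levels are given as CPM, which are counts scaled to the library's size times its TMM scaling factor. The factors ran from 0.486 in Eln-/- replicate 4 to 1.37 in Eln+/+ replicate 2. Acta2 was at 601 to 1742 CPM in Eln-/- libraries, against 473 to 1195 CPM in Eln+/+ libraries, and Tagln was at 455 to 1452 CPM in Eln-/- libraries, against 129 to 643 CPM in Eln+/+ libraries. All 8 smooth muscle markers were among the genes tested, although Myocd was at 0 in 2 libraries and Smtn in 1. The lowest Eln-/- values were 0 CPM for Myocd, 0.038 CPM for Myh11 and Smtn and 0.073 CPM for Lmod1, so these were almost absent from some libraries. In Eln+/+ libraries the lowest were 0 CPM for Smtn and Myocd, 1.47 CPM for Myh11 and 3.65 CPM for Lmod1. Cnn1 was at 16.6 CPM or more and Actg2 at 41.5 CPM or more in every library. The summed level of the 8 fibroblast markers ran from 607 to 12119 CPM in Eln-/- libraries, against 1367 to 7830 CPM in Eln+/+ libraries. Col1a1 and Dcn led this sum, and Col1a1 alone reached 9699 CPM in Eln-/-. Lum and Dpt came next, with Eln-/- means of 371 and 223 CPM and Eln+/+ means of 732 and 349 CPM. The rest were lower: Pdgfra, Pi16, Clec3b and Ly6a averaged 44.0, 44.0, 11.4 and 3.53 CPM in Eln-/- cells. Their Eln+/+ means were 86.3, 27.2, 18.0 and 11.9 CPM, and Pi16 was at 0 in 2 libraries. Whether these transcripts came from fibroblasts was not tested. Endothelial markers summed to 0.867 to 24.0 CPM in Eln-/- libraries, against 1.32 to 59.7 CPM in Eln+/+ libraries. Macrophage and blood markers summed to 2.26 to 11.8 CPM in Eln-/- libraries, against 0.265 to 19.2 CPM in Eln+/+ libraries, and erythroid markers to 23.2 to 5157 CPM in Eln-/- libraries, against 332 to 18883 CPM in Eln+/+ libraries. Cardiomyocyte markers, led by Myl7 and Actc1, summed to 23.8 to 845 CPM in Eln-/- libraries, against 4.32 to 901 CPM in Eln+/+ libraries. In bulk samples, fewer cells of a type and less RNA per cell cannot be told apart.

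None of the 9 genes differed between genotypes beyond the spread of the libraries. With edgeR's quasi-likelihood test and Benjamini-Hochberg adjustment over 15718 genes, 0 of the 9 passed the threshold of 0.05, and over all genes tested 0% passed. At an unadjusted p under 0.05 there were also 0 of 9, against 0.515% of all genes tested. In 0 of 9 did the genotypes fail to overlap, against 0.305% of all. Of the 9 log2 fold changes (Eln-/- over Eln+/+), 4 were above 0 and 5 below, with a median of -0.06, where 51.5% of all genes tested were above 0 and their median was 0.02. The 9 genes had passed the filter on low counts.

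**Figure D1:**
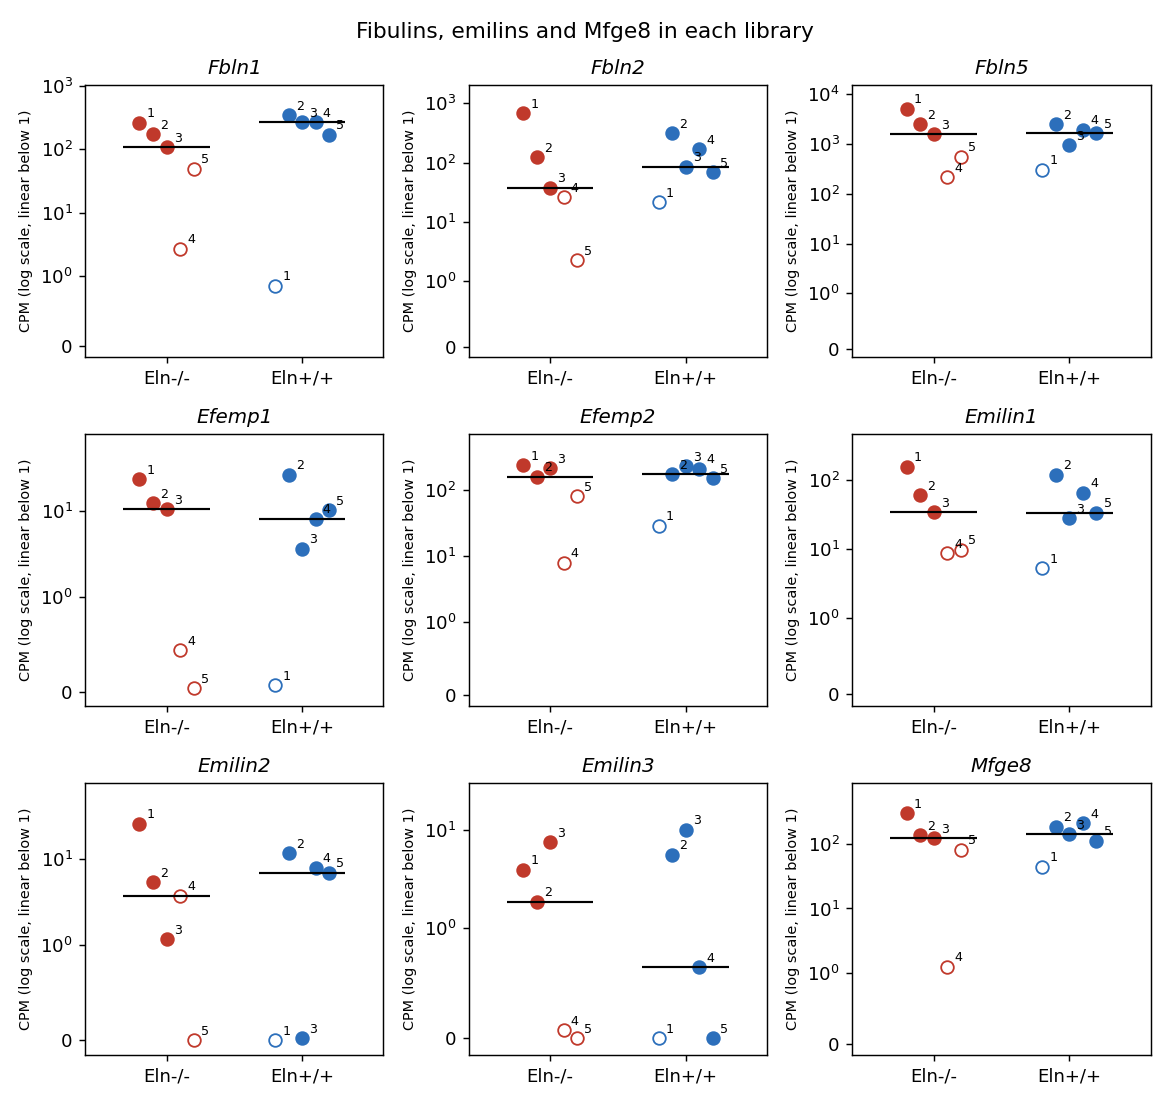
CPM of each gene in the 5 Eln-/- libraries (red) and the 5 Eln+/+ libraries (blue), on a log axis that is linear below 1; numbers are replicates, bars are medians, and open points are the 3 gene-poor libraries. The genotypes overlap in all 9 panels, and the open points are the lowest for 7 of the 9 genes.

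Fbln5, the short fibulin that tethers elastin to cells through integrins, was the most abundant of the 9 (chromosome 12, 101746565 to 101819055, minus strand, mm10). It was at 5093, 2472, 1550, 215 and 555 CPM in Eln-/- replicates 1 to 5, against 305, 2517, 945, 1917 and 1659 CPM in Eln+/+ replicates 1 to 5. The Eln-/- group held both the highest and the lowest library, and its range enclosed all Eln+/+ values. Fbln5 averaged 1977 ± 1953 CPM in Eln-/- cells, against 1469 ± 861 CPM in Eln+/+ cells (SD, n = 5 each), a log2 fold change of 0.43 (SE 0.84, 95% interval -1.41 to 2.26, edgeR adjusted p = 1.00). Without Eln-/- replicate 1 the log2 fold change was -0.30.

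Efemp2, which encodes the short fibulin that in mice is required for lysyl oxidase to act on elastin, lies on chromosome 19 from 5473954 to 5482517 on the plus strand. It was at 236, 159, 214, 7.84 and 79.2 CPM in Eln-/- replicates 1 to 5, against 28.6, 173, 227, 210 and 151 CPM in Eln+/+ replicates 1 to 5. Outside the 3 gene-poor libraries it was the steadiest of the 9, between 151 and 236 CPM in 7 libraries with a coefficient of variation of 17.5%, and there it averaged 203 ± 39.9 CPM in Eln-/- (SD, n = 3), against 190 ± 34.5 CPM in Eln+/+ (SD, n = 4). Over all 10 libraries the log2 fold change was -0.18 (SE 0.76, 95% interval -1.84 to 1.48, edgeR adjusted p = 1.00). Without Eln-/- replicate 4 it was 0.13. Exons of Efemp2 share 173 bases with Mus81 on the other strand, and reads there cannot be assigned without known strand.

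Efemp1, the third short fibulin, was low throughout (chromosome 11, 28853204 to 28926743, plus strand). Its counts were 1725, 818, 495, 6 and 1 in Eln-/- replicates 1 to 5, against 1, 2337, 180, 513 and 463 in Eln+/+ replicates 1 to 5. It was thus near 0 in the 3 gene-poor libraries and between 3.65 and 26.8 CPM in the other 7. Efemp1 averaged 9.42 ± 9.76 CPM in Eln-/- cells, against 9.79 ± 10.3 CPM in Eln+/+ cells (SD, n = 5 each), a log2 fold change of -0.06 (SE 1.41). This was 0.77 without Eln+/+ replicate 2 and -0.74 without Eln-/- replicate 1.

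Fbln1, a long fibulin, had the log2 fold change farthest from 0 of the 9 in the edgeR fit of all 10 libraries, though not under every alternative, and was lower in Eln-/- under all settings run (chromosome 15, 85205949 to 85286535, plus strand). It was at 263, 172, 106, 2.69 and 49.5 CPM in Eln-/- replicates 1 to 5, against 0.860, 344, 268, 266 and 169 CPM in Eln+/+ replicates 1 to 5. Eln+/+ replicates 2, 3 and 4 were above every Eln-/- library, replicate 5 was below Eln-/- replicates 1 and 2, and replicate 1 was below all the others. The log2 fold change was -0.82 (SE 1.14, 95% interval -3.31 to 1.67, unadjusted p = 0.486, edgeR adjusted p = 1.00), and over the alternatives it ran from -1.35 to -0.45 with adjusted p of 1.00 in each fitted model. Outside the 3 gene-poor libraries Fbln1 averaged 180 ± 78.4 CPM in Eln-/- (SD, n = 3) and 262 ± 71.5 CPM in Eln+/+ (SD, n = 4), and the genotypes overlapped there too. A log2 fold change above 0 was seen for 51.5% of all genes tested and for 7 of the 8 smooth muscle markers. Of the 8 fibroblast markers, 2 were above 0. Col1a1, the most abundant of them, averaged 2570 ± 4048 CPM in Eln-/- cells, against 2318 ± 1990 CPM in Eln+/+ cells, and Dcn, a matrix proteoglycan, averaged 647 ± 424 CPM in Eln-/- cells, against 1566 ± 862 CPM in Eln+/+ cells (SD, n = 5 each; log2 fold change -1.28, SE 0.67, edgeR adjusted p = 1.00). The part of fibroblast transcripts in the Fbln1 values was not tested.

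Fbln2, the other long fibulin, which in mice takes part with Fbln5 in forming the internal elastic lamina, lies on chromosome 6 from 91212455 to 91272540 on the plus strand. It was at 684, 124, 38.1, 25.9 and 2.26 CPM in Eln-/- replicates 1 to 5, against 21.7, 315, 85.8, 169 and 68.8 CPM in Eln+/+ replicates 1 to 5. Eln-/- replicate 1 stood above all the rest, and the other 4 Eln-/- libraries were below the 2 highest Eln+/+ libraries. The log2 fold change of 0.40 (SE 1.15, edgeR adjusted p = 1.00) became -1.48 without Eln-/- replicate 1 and 1.02 without Eln+/+ replicate 2. Those are also the libraries with the highest fibroblast marker sum in Eln-/-, at 12119 CPM, and the second highest in Eln+/+, at 7706 CPM. Each also had the highest total count and the most detected genes of its genotype. These were 56371424 and 22951 in Eln-/- replicate 1, and 63866346 and 21864 in Eln+/+ replicate 2. The part of depth, detection or fibroblast transcripts in the result was not tested. The sort was for GFP+ cells, and whether RNA of other cells contributed was not tested.

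Emilin1, an emilin of the vessel wall, lies on chromosome 5 from 30913402 to 30921277 on the plus strand. It was at 153, 59.6, 33.9, 8.64 and 9.69 CPM in Eln-/- replicates 1 to 5, against 5.22, 118, 27.6, 64.7 and 32.9 CPM in Eln+/+ replicates 1 to 5. Both genotypes thus held 1 library above 100 CPM, and their medians were 33.9 CPM in Eln-/- cells, against 32.9 CPM in Eln+/+ cells. The log2 fold change was 0.09 (SE 0.90, 95% interval -1.87 to 2.06), and -0.83 without Eln-/- replicate 1.

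Emilin2 and Emilin3 were scarce, with 0 counts in 2 and 3 of the 10 libraries. Emilin2 (chromosome 17, 71252172 to 71311978, minus strand) had 1906, 355, 55, 52 and 0 counts in Eln-/- replicates 1 to 5, against 0, 1018, 1, 506 and 312 in Eln+/+ replicates 1 to 5. Emilin3 (chromosome 2, 160906437 to 160912328, minus strand) had 287, 122, 351, 1 and 0 counts in Eln-/- replicates 1 to 5, against 0, 484, 492, 41 and 0 in Eln+/+ replicates 1 to 5. Libraries at or near 0 occurred in both genotypes, not solely where few genes were detected: Eln+/+ replicate 3 had 1 count of Emilin2 and Eln+/+ replicate 5 had 0 of Emilin3. The intervals of the log2 fold changes were the widest of the family, -3.34 to 4.24 for Emilin2 and -4.38 to 3.82 for Emilin3.

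Mfge8, which encodes lactadherin (chromosome 7, 79133768 to 79149060, minus strand), was at 305, 140, 125, 1.23 and 82.6 CPM in Eln-/- replicates 1 to 5, against 44.7, 188, 143, 215 and 114 CPM in Eln+/+ replicates 1 to 5. Eln-/- replicate 4 was far below the rest. Mfge8 averaged 131 ± 111 CPM in Eln-/- cells, against 141 ± 66.6 CPM in Eln+/+ cells (SD, n = 5 each), a log2 fold change of -0.11 (SE 0.89, 95% interval -2.05 to 1.83), which was 0.21 without Eln-/- replicate 4.

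**Figure D2:**
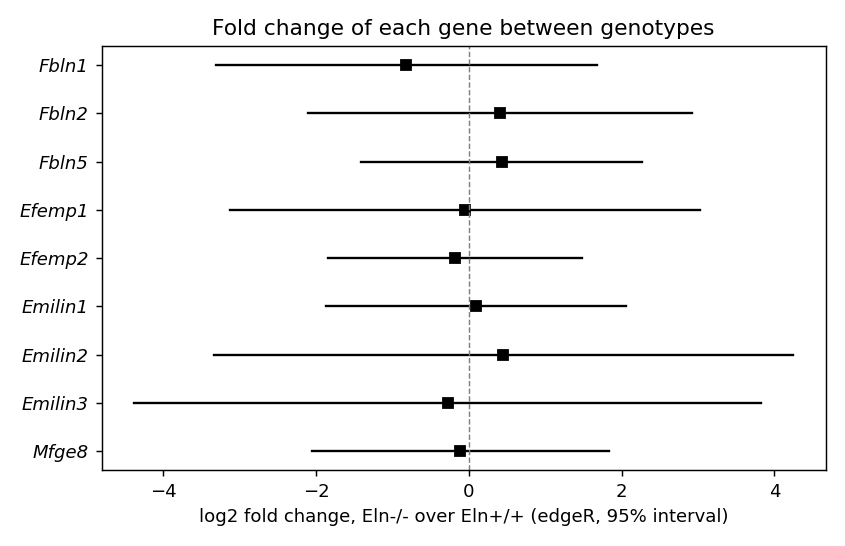
Log2 fold change (Eln-/- over Eln+/+) of the 9 genes from edgeR with all 10 libraries; squares are estimates and lines 95% intervals. Each interval includes 0, and the intervals run from -1.84 to 1.48 for Efemp2, the narrowest, to -4.38 to 3.82 for Emilin3.

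The sign of most members rested on single libraries. With all libraries 4 of the 9 fold changes were above 0; without Eln-/- replicate 1 there were 0 of 9 (median -0.74, with 43.8% of all genes above 0), and without Eln+/+ replicate 2 there were 7 of 9 (median 0.70, with 55.6% of all genes above 0). Eln-/- replicate 1 held the highest value of 6 members and Eln+/+ replicate 2 the highest of 2. Each also had the highest total count and the most detected genes of its genotype, and their part was not tested. Without the 3 gene-poor libraries, 8 of 9 were above 0 (median 0.36, with 52.8% of all genes above 0), and Fbln1 was the exception. In each of these fits 0 of 9 passed and 0 of 9 had an unadjusted p under 0.05.

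**Figure D3:**
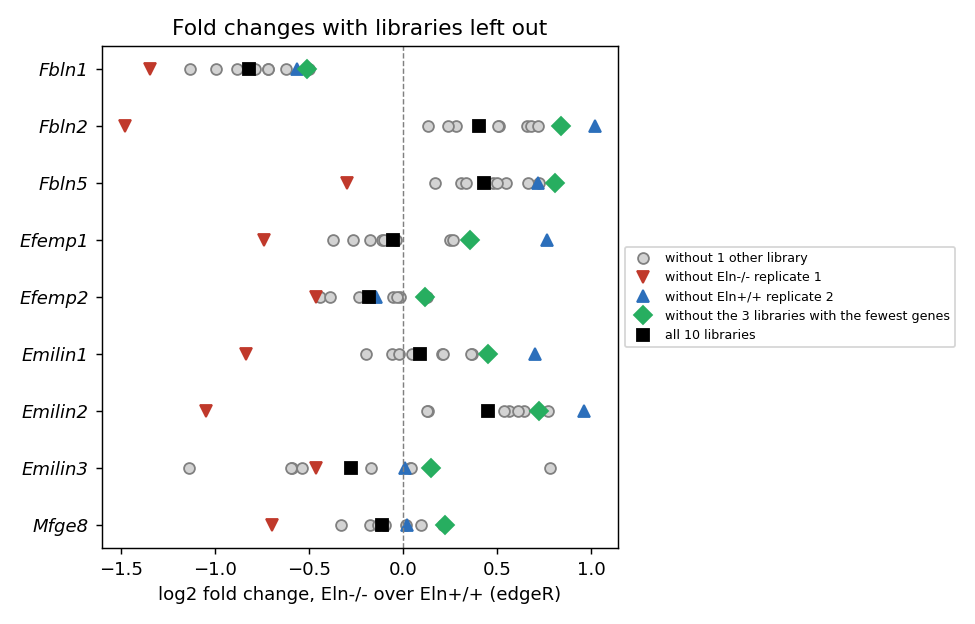
Log2 fold change (Eln-/- over Eln+/+, edgeR) of each gene with all 10 libraries (black squares), without Eln-/- replicate 1 (red), without Eln+/+ replicate 2 (blue), without the 3 gene-poor libraries (green) and without each other library (grey). All 9 red points lie below 0, and of the genes Fbln1 alone has every point below 0.

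Levels of different genes were compared as CPM per kb of merged exons. Fbln5 led in each of the 10 libraries, at 249 ± 210 CPM per kb (SD, n = 10), and was 2.23-fold to 8.54-fold above the next gene. It also exceeded Eln per kb in 5 of 5 Eln+/+ libraries, by 2.24-fold to 6.35-fold. For Eln only the merged exons (8098 bases) were used, and the size of that excess depends on the length chosen. Next came Efemp2 at 39.2 ± 21.8, Fbln1 at 37.6 ± 27.8, Mfge8 at 28.9 ± 18.4 and Fbln2 at 24.1 ± 32.7 CPM per kb (SD, n = 10). These 4 did not separate: Efemp2 was above Fbln1 in 7 of 10 libraries, Fbln1 above Mfge8 in 6 and Mfge8 above Fbln2 in 7. Emilin1 followed at 10.4 ± 10.0 CPM per kb and was above Efemp1, at 4.72 ± 4.65 CPM per kb, in all 10. Emilin2 at 1.15 ± 1.45 and Emilin3 at 0.832 ± 1.02 CPM per kb were last. With the length of the longest protein-coding transcript in place of merged exons, Mfge8 moved to second place at 63.9 CPM per kb, and the order of the 4 middle genes is therefore not settled.

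Shares of the family within a library are free of the scaling factor, but not of depth or detection. Fbln5 took 60.6% to 76.3% of the summed CPM per kb of the 9 genes in Eln-/- and 43.8% to 66.9% in Eln+/+. Fbln1 took 1.51% to 8.55% in Eln-/-, against 0.299% in Eln+/+ replicate 1 and 10.6% to 19.6% in Eln+/+ replicates 2 to 5. Efemp2 took 5.07% to 16.0% in Eln-/- and 7.36% to 19.2% in Eln+/+, and Emilin1 took 1.48% to 4.29% in Eln-/- and 1.61% to 3.87% in Eln+/+. The ranges overlapped for these 4 genes, and for the other 5. Efemp1 had its 3 lowest shares, 0.014% to 0.524%, in the 3 gene-poor libraries, which are also the 3 with the lowest total counts, and Fbln1 had its 2 lowest shares in Eln-/- replicate 4, at 1.51%, and Eln+/+ replicate 1, at 0.299%. The summed level itself ran from 40.8 to 1080.2 CPM per kb in Eln-/- and from 65.8 to 619 CPM per kb in Eln+/+.

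**Figure D4:**
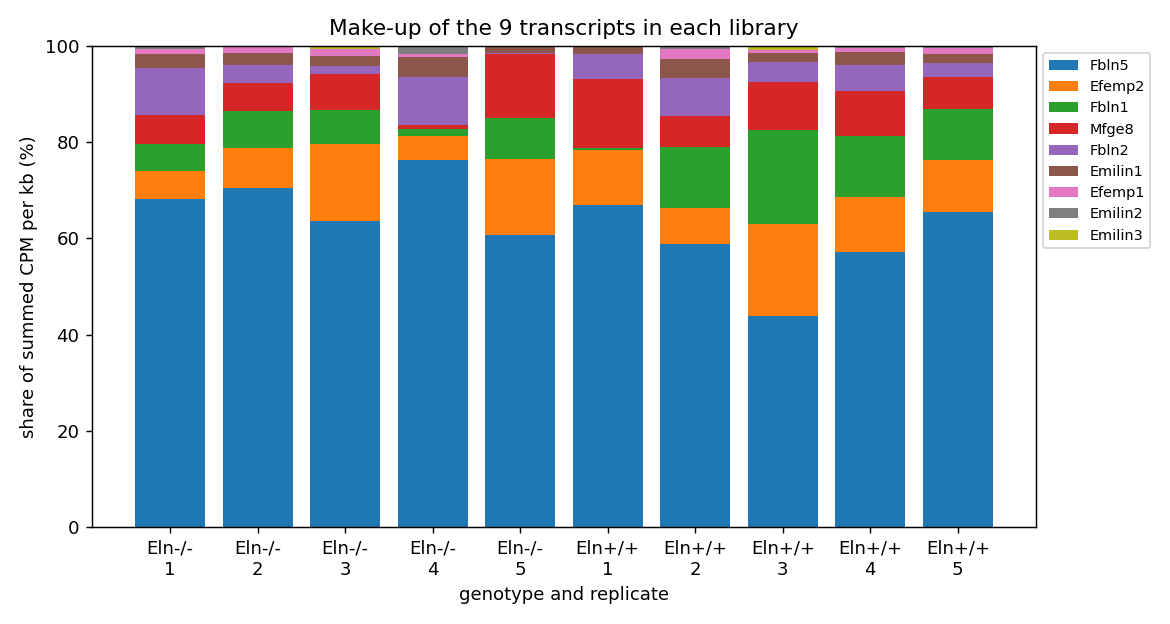
Share of each gene in the summed CPM per kb of the 9 genes (percent), one bar per library, Eln-/- replicates left and Eln+/+ replicates right. Fbln5 (bottom, blue) is the largest block in each bar, from 43.8% in Eln+/+ replicate 3 to 76.3% in Eln-/- replicate 4.

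The members were low in the same libraries. All 9 had Eln-/- replicate 5 and Eln+/+ replicate 1 among their 3 lowest libraries, and 7 had Eln-/- replicate 4 there. In 7 of the 9 genes the 3 gene-poor libraries were below each of the rest. Over the 10 libraries the SD of log2 CPM was 1.45 for Fbln5, 1.61 for Efemp2, 1.63 for Emilin1, 2.25 for Mfge8, 2.30 for Fbln2 and 3.01 for Fbln1, against a median of 1.19 over the 6385 tested genes whose average log2 CPM reached 4. Marker sums of several other cell types were low there too. The fibroblast sum was 607 to 1367 CPM in those 3 libraries and 2465 to 12119 CPM in the other 7. The endothelial sum was 0.867 to 5.88 CPM in the 3 and 8.36 to 59.7 CPM in the 7, and the mesothelial and epithelial sum was 13.5 to 23.3 CPM in the 3 and 35.3 to 169 CPM in the 7. The smooth muscle sum overlapped, at 1128 to 2642 CPM in the 3 and 782 to 3152 CPM in the 7, as did those of macrophages and blood, cardiomyocytes and glia. The erythroid sum reached higher values in the 3, at 619 to 18883 CPM, than in the 7, at 23.2 to 1357 CPM. The part of detection and of these transcripts in the members' values was not tested.

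Genes were also ranked by how closely their centred log2 CPM followed each member over the 10 libraries, by the root mean square (RMS) difference, as a description. Fbln5 was followed most closely by Lmna, the nuclear lamina gene (RMS 0.33), and Cavin1, a coat protein of caveolae (0.35), and among members by Emilin1 (0.47), where the median gene lay at 1.65. For Efemp2 the closest were Rpn1 (0.24) and Pdia3 (0.26), both of the endoplasmic reticulum, and among members Fbln5 (0.77). For Fbln1 they were Ddx1 (0.33) and Mcm3 (0.41), for Fbln2 Nfia (0.46) and Phlda1 (0.49), for Emilin1 Glyr1 and Gapvd1 (0.35 each) and for Mfge8 Nuf2 (0.37) and Fzd4 (0.39). The nearest genes of Efemp1, Coro1c (0.62) and Nup107 (0.73), of Emilin2, Megf6 (0.92) and Kifc1 (1.31), and of Emilin3, Iars (1.67) and Rin2 (1.72), were farther away. Efemp1, Emilin2 and Emilin3 were themselves below the level set for the ranked genes. No gene as scarce could be nearest to them, so their larger distances cannot be compared with those of the other members. All these profiles share the same libraries and their depth and detection.

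Relatives of the family were scarce. Fbln7, a short fibulin, was at 0.654 to 23.9 CPM in Eln-/- cells, against 0 to 14.5 CPM in Eln+/+ cells (log2 fold change 0.58, SE 1.25). That value was 0.047 without Eln-/- replicate 1, 0.99 without Eln+/+ replicate 3 and 1.78 with limma-voom. Hmcn1, the giant fibulin relative hemicentin, was at 1.75 to 23.8 CPM in Eln-/- cells, against 0.183 to 8.36 CPM in Eln+/+ cells (log2 fold change 0.86, SE 1.01, and 0.15 without Eln-/- replicate 4), and its exons overlap an antisense gene. Hmcn2 had at most 6 counts in a library, Mmrn1, the multimerin of platelets and endothelium, had 0 in all 10, and Mmrn2, the endothelial multimerin, was at 0 to 1.03 CPM in Eln-/- cells, against 0 to 2.80 CPM in Eln+/+ cells. None of these last 3 reached the test.

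In the list of other elastic fibre and microfibril genes, 16 of 18 were tested, 0 passed, 10 were above 0 and 6 below, with a median log2 fold change of 0.29. Eln, at -12.19 (SE 1.64, edgeR adjusted p = 0.152), was the single one with an unadjusted p under 0.05. Replicate 1 held 36 Eln counts and the other 4 Eln-/- libraries at most 1 each, and without it the log2 fold change was -15.14 (edgeR adjusted p = 0.011, within a range over the alternatives of 1.3e-20 with DESeq2 to 1.00 with the replicate block). Exons of Eln share 267 bases with the antisense gene Gm30003, and reads there cannot be assigned without known strand. With so few Eln counts the Eln values depend on the prior count of the fit. After it came the latent TGF-beta binding proteins Ltbp1, at 158 ± 218 CPM in Eln-/- cells, against 60.1 ± 61.2 CPM in Eln+/+ cells (log2 fold change 1.39, SE 1.03), and Ltbp4, a partner of fibulins, at 50.5 ± 93.1 CPM in Eln-/- cells, against 14.9 ± 19.0 CPM in Eln+/+ cells (1.76, SE 1.68; SD, n = 5 each). Without Eln-/- replicate 1 these log2 fold changes were 0.07 and -0.72. Among 24 genes for proteins that bind or process members, all 24 were tested, 0 passed, 15 were above 0 and 9 below (median 0.16), and 0 had an unadjusted p under 0.05. This list shares Lox, Loxl1, Fbn1 and Ltbp4 with the list of other elastic fibre genes, so their counts are not separate. Over all genes tested 0% passed, 51.5% were above 0 and 0.515% had an unadjusted p under 0.05 by edgeR. The smallest p among those 24 genes belonged to Dcn, which is also a fibroblast marker here. Next was Fn1, the fibronectin gene, whose log2 fold change of 1.28 (SE 1.07) was -1.23 without Eln-/- replicate 1.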

How the data were processed

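The authors deposited 1 table of estimated counts per gene for 10 libraries, with no scaling to library size; each column carries a sample name that the labels also give. Per the labels' protocols, an mRNA kit for low input was used. Per the submitters' processing notes, STAR, DESeq2 and mm10 were used, without versions. Not given in the sources used here were the program that counted reads, its annotation and whether strand was used. Of the values in a library, 23.5% to 48.8% were not whole (tolerance 1e-06), so the expected counts were rounded. Gene spans were the same as in GENCODE mouse release M21 for 27046 of 28165 genes (96.0%), which gave exon lengths.

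Genes were kept by filterByExpr on genotype (minimum count 10), leaving 15718, with TMM scaling. Eln-/- was compared with Eln+/+ by edgeR 4.0.16 (glmQLFit, glmQLFTest, two-sided, genotype as the only term, Benjamini-Hochberg adjustment, threshold 0.05) in R 4.3.3; limma 3.58.1 and DESeq2 1.42.0 were alternatives. The SE is the size of the fold change divided by the square root of F, and its 95% interval uses the t distribution. CPM uses the TMM factors, and log2 CPM a prior count of 2. The members and lists were chosen with earlier results of these data known. The text names all members, their 5 relatives, Eln and the 3 genes with the smallest p of each list. It also names the 2 genes nearest to each member by RMS, all smooth muscle and fibroblast markers and the 2 leading cardiomyocyte markers.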

Additional observations from a re-analysis of the deposited data

Results flagged for a closer look

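In groups of 5 libraries, 3 of 18 combinations of member and genotype had a library far from the others, by a gap to its nearest neighbour of more than 0.71 of the whole range of log2 CPM. Chance gives about 1 in 20 such groups, but the 18 share the same 10 libraries and are not independent draws. Fbln1 was at a log2 CPM of -0.15 (0.860 CPM) in Eln+/+ replicate 1. Efemp2 was at a log2 CPM of 4.84 (28.6 CPM) in the same library. Mfge8 was at a log2 CPM of 0.35 (1.23 CPM) in Eln-/- replicate 4. All were low values in libraries with few detected genes, whose part in them was not tested.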

How the results depend on the processing

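Each member was refitted or retested under 21 alternatives, 189 values in all, and 0 of 9 passed under any; 147 kept their sign and 42 turned it, and Fbln1 kept it in all 21. The causes were not tested. With the replicate number as a block (replicate block), the log2 fold changes that turned were Fbln2 -1.57, Fbln5 -0.16 and Emilin1 -0.53, and outside the family Ltbp4 -1.02 and Fn1 -0.19. The labels do not state that the numbers pair the libraries. The correlation of deviations ran from -0.56 to 0.51 over the 5 pairs, with no common sign, and cannot decide it. With the block 0 genes passed, as in the main fit. With limma-voom, Fbln2 was -0.78, Emilin1 -0.030 and Emilin3 0.62. With sample quality weights, Fbln2 was -0.66, Efemp1 0.17, Emilin1 -0.12, Emilin2 -0.18, Emilin3 1.65 and Fn1 -0.31. Without Eln+/+ replicate 2 and Eln-/- replicate 1, Fbln2 was -0.86, Fbln5 -0.0092, Efemp1 0.087, Emilin1 -0.22, Emilin2 -0.53 and Fn1 -0.63. Without the 3 gene-poor libraries, Efemp1 was 0.36, Efemp2 0.12, Emilin3 0.15 and Mfge8 0.22. In the exact permutation test of the libraries (smallest possible p 0.00794), the difference of mean log2 CPM was -1.03 for Fbln2, -0.10 for Emilin1 and 0.40 for Emilin3 (p = 0.532, 0.937 and 0.833). Leaving out 1 library at a time gave log2 fold changes of -1.48 to 1.02 for Fbln2, -0.30 to 0.72 for Fbln5, -0.74 to 0.77 for Efemp1, -0.46 to 0.13 for Efemp2, -0.83 to 0.70 for Emilin1, -1.05 to 0.96 for Emilin2, -1.14 to 0.78 for Emilin3, -0.70 to 0.21 for Mfge8, -0.72 to 2.74 for Ltbp4 and -1.23 to 1.89 for Fn1.

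Over all genes, the edgeR count of 0 became 6 with DESeq2 on the filtered genes, 28 with DESeq2 on all genes, 2 with limma-voom, 7 with sample quality weights, 1 without Eln+/+ replicate 2 and Eln-/- replicate 1, and 0 to 1 leaving out 1 library. Among other elastic fibre genes the count of 0 became 1, which was Eln, with both DESeq2 fits, both limma-voom fits and without those 2 libraries, and was 0 to 1 leaving out 1 library. The order of the members per length had 3 genes at another rank in Eln-/- libraries, 2 in Eln+/+ libraries and 3 with the longest protein-coding transcript, a setting chosen after seeing the data. The intervals of the members' fold changes span at least 3 log2 units, so changes of several fold in either direction were not detectable.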
